A study of Mus musculus with 16 samples.

Results

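A set of 10 imprinted genes that control growth, *H19*, *Igf2*, *Igf2r*, *Dlk1*, *Meg3*, *Peg3*, *Peg10*, *Plagl1*, *Cdkn1c* and *Grb10*, was followed across the mouse osteosarcomas. The rule takes them by gene name, and all 10 members are among the 25054 genes of the count table. RNA was sequenced after ribosomal RNA removal in 16 tumors, 8 labeled WT and 8 labeled KO. WT stands for OsxCreERT2+/-;p53fl/fl;Rb1fl/fl mice and KO for mice that carried Arid1afl/fl as well, so that loss of *Trp53* and *Rb1* is shared by both groups. All mice received 400 µg/g tamoxifen intraperitoneally (20 mg/mL) at 1 month of age, which activates Cre only in cells that express Osterix, a factor of the bone-forming lineage. The mice were of both sexes and older than 6 months, and the sex of each tumor's host is not given.

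The 8 KO tumors came from 8 mice, named Massa, Medusa, Montana, Ohio, Prince, Grilka, Zelda and Oregon. The 8 WT tumors came from 4 mice, with 4 tumors of N42 (R pelvis, R femur, L limb, L shoulder), 2 of N43 (spine, pelvis) and 1 each of N215 (R hind limb) and N25 (lung). Tumors of the same mouse are not independent, and a site was given for the WT tumors only. Total counts ranged from 1109487 to 15059640 in KO and from 7806160 to 16962329 in WT. The shallowest libraries were Massa and Grilka, in which 3 counts correspond to 6.69 and 4.03 CPM, against 0.146 to 0.340 CPM in WT. CPM are counts relative to the library size after TMM scaling. These floors cover counting error only.

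*Arid1a* had 187 ± 57.5 CPM in KO and 167 ± 31.8 CPM in WT (mean ± SD, n = 8 each), with a log2 fold change of 0.16 (SE 0.22, adjusted p = 0.715, edgeR quasi-likelihood test). The counts cover the whole gene, including exons outside the floxed part and any RNA of host cells that Cre did not reach, so they do not check the KO label. Markers of other tissues were high in some tumors. The summed level of 16 skeletal muscle genes was 113394 CPM in Montana and 171554 CPM in Oregon, and between 9.77 and 10195 CPM in the other tumors. These 2 tumors also had the highest sums of the 8 adipose genes, 2153 CPM in Montana and 631 CPM in Oregon, against at most 297 CPM elsewhere. The 14 osteoblast genes summed to between 855 and 63992.5 CPM in KO and between 3540 and 94490 CPM in WT, and 3 of them were at 0 counts in Massa and in N215 R hind limb, 2 in Prince and 1 in Grilka. The 10 lung genes summed to 27854 CPM in N25 lung and 12914 CPM in Massa, against at most 77.5 CPM elsewhere. The 11 salivary gland genes summed to 26715 CPM in Prince and the 10 liver genes to 2351 CPM in Zelda, both higher than in any other tumor. In such bulk samples, fewer cells of a type and less RNA per cell cannot be told apart.

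An imprinted gene is transcribed mainly from a single parental copy, as set by DNA methylation laid down in a parent's germ line at a control region that may lie on the active or the silent copy. *Igf2*, *Dlk1*, *Peg3*, *Peg10* and *Plagl1* are read mainly from the paternal copy and *H19*, *Meg3*, *Igf2r*, *Cdkn1c* and most *Grb10* transcripts from the maternal copy. *Igf2* and *H19* are neighbors that compete for shared enhancers, and *Dlk1* and *Meg3* are likewise paired at the Dlk1-Dio3 domain. Several of these genes are high in fetal tissues, fall after birth and are abundant in developing or regenerating muscle. Which parental copy was read cannot be seen in these counts.

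In GRCm38, *Igf2* lies at chr7:142650766-142666816 and *H19* at chr7:142575529-142578143, both on the minus strand, with *Cdkn1c* at chr7:143458339-143461050 and *Peg3* at chr7:6703892-6730431 on the same chromosome. *Dlk1* (chr12:109452823-109463336) and *Meg3* (chr12:109541001-109571726) follow each other on the plus strand. The remaining members are *Igf2r* (chr17:12682406-12769664), *Grb10* (chr11:11930508-12038683), *Plagl1* (chr10:13060504-13131694) and *Peg10* (chr6:4747306-4760517). Exons of *Igf2* overlap those of the antisense gene *Igf2os*. The models Gm27483 and Gm44732, with 25 and 68 counts in all, overlap exons of *H19* and *Cdkn1c* on the opposite strand. The antisense *Airn* runs through introns of *Igf2r*, and their annotated exons do not overlap. The strand used in counting is not stated in the sources used here, so reads in overlapping exons cannot be told apart.

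RefSeq promoter windows (GRCm38.p6, 300 bases around a start) were found for 7 of 10 members, 12 windows in all. Windows of *Igf2*, *Meg3* and *Peg3* are shown because *Igf2* and *Meg3* were highest in the same tumor, N215 R hind limb, in which *Peg3* was low. Capitals mark the palindrome TGACGTCA, the palindrome GGGGCCCC and the GC box GGGCGG, each searched on both strands, and no 2 of the motifs share bases in the windows shown. TGACGTCA, the cyclic AMP response element, is in 1.79% of all 32851 windows and in 2 of the 12, those of *Peg3* (chr7:6730370-6730669, minus strand) and *Meg3* (chr12:109540746-109541045, plus strand). GGGGCCCC is in 1.078% of all windows and, among members, in the *Peg3* window. GGGCGG is in 35.658% of all windows and 5 of the 12, among them the *Igf2* window at chr7:142657447-142657746 (minus strand), which holds it 2 times. The core of the CTCF motif is in 0.037% of all windows and in none of the 12. A match describes these letters and shows no bound factor.
Peg3 promoter: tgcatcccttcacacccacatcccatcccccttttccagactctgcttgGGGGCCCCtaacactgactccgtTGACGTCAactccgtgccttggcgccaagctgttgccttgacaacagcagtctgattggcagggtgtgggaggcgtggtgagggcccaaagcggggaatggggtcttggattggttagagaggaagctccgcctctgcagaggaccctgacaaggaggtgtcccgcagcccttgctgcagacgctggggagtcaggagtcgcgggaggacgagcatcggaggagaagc
Meg3 promoter: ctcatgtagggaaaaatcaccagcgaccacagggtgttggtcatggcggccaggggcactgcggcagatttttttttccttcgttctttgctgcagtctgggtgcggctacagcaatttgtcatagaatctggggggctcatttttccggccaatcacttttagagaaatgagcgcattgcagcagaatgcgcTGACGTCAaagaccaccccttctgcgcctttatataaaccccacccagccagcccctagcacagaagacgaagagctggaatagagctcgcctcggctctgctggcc
Igf2 promoter: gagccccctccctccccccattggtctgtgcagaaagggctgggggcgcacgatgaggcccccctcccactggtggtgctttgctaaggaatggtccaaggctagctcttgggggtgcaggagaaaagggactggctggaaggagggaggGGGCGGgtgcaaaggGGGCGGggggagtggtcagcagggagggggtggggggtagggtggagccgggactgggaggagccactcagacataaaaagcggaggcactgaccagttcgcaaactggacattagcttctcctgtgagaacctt

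Both transcripts of the *Igf2*-*H19* domain also carry a microRNA. The mature products are shown with bases 2 to 8, the seed that pairs with targets, in capitals, and no 2 of the 4 share a seed. *Mir483* lies in an intron of *Igf2* and *Mir675* in *H19*.
miR-483-5p: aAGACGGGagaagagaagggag
miR-483-3p: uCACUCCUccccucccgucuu
miR-675-5p: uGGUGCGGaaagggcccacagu
miR-675-3p: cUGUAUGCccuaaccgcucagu
The precursor *Mir483* had 10 counts in N215 R hind limb, 1 in Oregon and 0 in the other 14 tumors. These are long-RNA libraries, so this count describes the locus and not the mature product.

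Per kilobase of exon, *H19*, *Igf2r* and *Grb10* had the highest 3 medians in both groups. In KO the medians were 22.8 CPM per kilobase for *H19*, 20.8 for *Igf2r*, 13.98 for *Grb10* and 13.04 for *Cdkn1c*, and in WT they were 27.1 for *Grb10*, 21.5 for *H19*, 17.9 for *Igf2r* and 6.63 for *Peg10*. The ranges of these neighbors overlapped within each group, for example 0.138 to 378 for *H19* and 5.75 to 40.1 for *Igf2r* in KO. *Dlk1* was lowest in both groups, with medians of 0.0626 and 0.0743 CPM per kilobase. The member with the highest level per kilobase changed from tumor to tumor. It was *Grb10* in 3 KO and 4 WT tumors, *H19* in 3 KO and 2 WT, *Cdkn1c* in 1 KO (Massa) and 1 WT (N25 lung), *Igf2r* in 1 KO (Prince) and *Igf2* in 1 WT (N215 R hind limb).

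**Figure D1:**
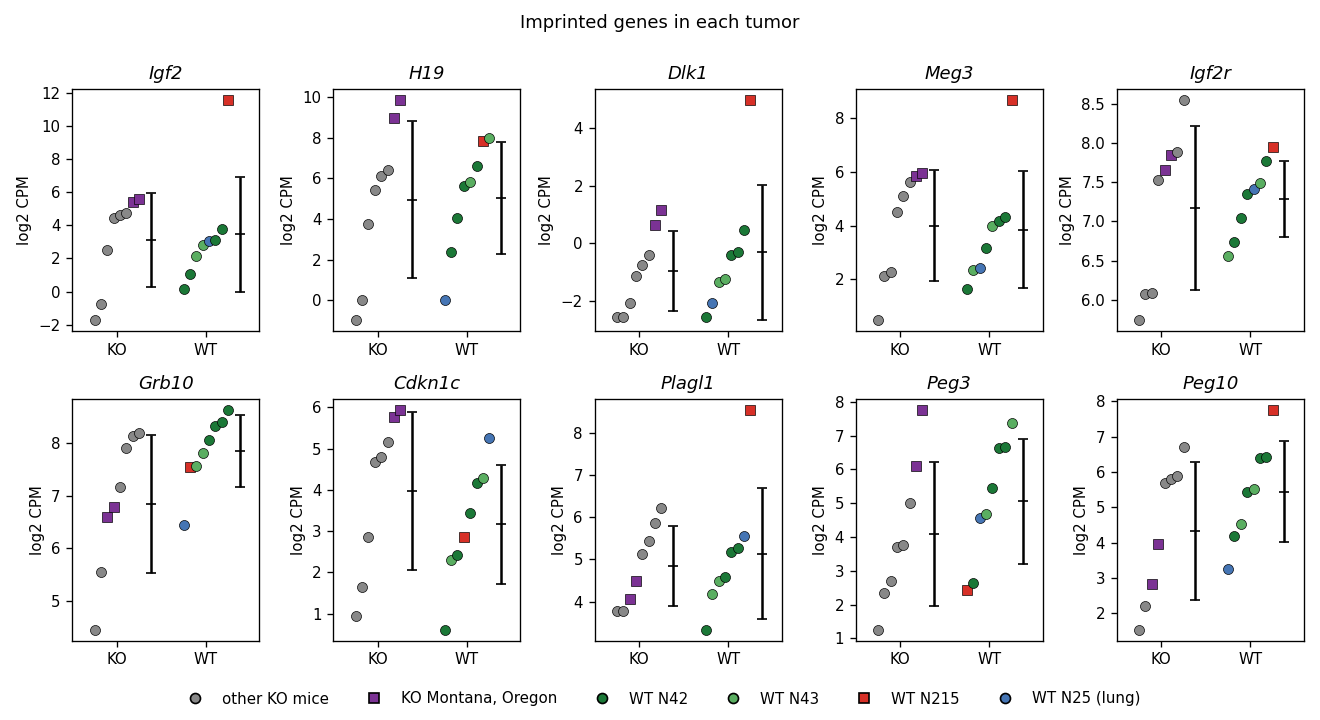
Log2 CPM (y axis of each panel, prior count 2) of the 10 members in the 8 KO and 8 WT tumors, drawn in order of value within a group; bars are the mean ± SD. N215 (red square) is the highest of all tumors for *Igf2*, *Dlk1*, *Meg3*, *Plagl1* and *Peg10*, and Montana and Oregon (purple squares) are the highest for *H19* and *Cdkn1c*.

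The comparison of KO with WT asked whether the loss of *Arid1a*, a subunit of the SWI/SNF chromatin remodeler, goes with another level of these genes. None of the 9 members tested was past the adjusted threshold of 0.05 (edgeR quasi-likelihood test, Benjamini-Hochberg), where 4.01% of all 15413 genes tested were. At an unadjusted p under 0.05 there was 1 member, *Igf2*, where 23.0% of all genes were. DESeq2 with default settings called no member, and with its replacement of outlying counts switched off it called *Igf2* (adjusted p = 0.0181). *Dlk1* did not pass the filter on low counts. The groups overlapped for all 10 members, and 0.415% of all genes tested had groups that did not overlap. The log2 fold change, KO minus WT, was below 0 for 6 of the 9 and above 0 for 3, and its median was -0.70 beside 0.097 over all genes tested. The adjusted p-values ranged from 0.152 to 0.888.

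*Igf2*, the fetal insulin-like growth factor, had its lowest, median and highest values at 0.136, 23.0 and 47.0 CPM in KO and at 0.966, 7.47 and 2997 CPM in WT. N215 R hind limb held the highest value and lay 63.8 times above the next tumor, Oregon. The fitted log2 fold change was -4.19 (SE 1.70, adjusted p = 0.152, edgeR), although the KO median was above the WT median. That KO median lies between the shallow libraries Grilka (21.5 CPM from 16 counts) and Massa (24.5 CPM from 11 counts). Their TMM factors, 0.414 and 0.409, were the lowest of all tumors and raise their CPM, so the order of the medians is uncertain. Without N215 the fold change was 1.76 (SE 0.88, adjusted p = 0.230, edgeR), so a single tumor set its direction. On log2 CPM, which weighs each tumor alike, the difference between group means was -0.36 (two-sided exact permutation p = 0.840 over tumors).

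*H19*, the noncoding neighbor of *Igf2* that restrains growth, had 0.339, 56.0 and 929 CPM (lowest, median, highest) in KO and 0.839, 52.8 and 255 CPM in WT. The medians lay side by side although both groups spanned a wide range. Montana (929 CPM) and Oregon (510 CPM) were above all other tumors, while Zelda, Prince and N25 lung had less than 1 CPM. The fitted log2 fold change of 1.22 (SE 1.21, adjusted p = 0.581, edgeR) became -1.36 (SE 1.15, adjusted p = 0.549) without Montana and Oregon. The difference between mean log2 CPM was -0.09 (two-sided exact permutation p = 0.955).

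Because both genes are counted in the same library, their ratio does not depend on the scaling. Per kilobase of exon, *Igf2* was below *H19* in 14 of 16 tumors, with ratios from 0.0116 in N43 pelvis to 0.788 in Massa. The ratio was 5.65 in N215 R hind limb, from 26423 and 2012 counts, and 4.13 in N25 lung, from 125 and 13 counts. The first followed from high *Igf2* beside an *H19* level of 228 CPM, which was the 4th highest of the 16, and the second from low *H19* beside 8.07 CPM of *Igf2*. In Massa, Prince and Zelda the ratio rests on at most 11 counts of either gene.

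*Dlk1*, a membrane protein of the Notch ligand family that is abundant in fetal tissue, was near the floor. It had 0, 0.354 and 2.04 CPM (lowest, median, highest) in KO and 0, 0.421 and 31.4 CPM in WT. Massa, Grilka and N42 R femur had 0 counts, and a count of 0 allows up to 6.69, 4.03 and 0.170 CPM there. N215 R hind limb had 277 counts, 15.4 times the CPM of the next tumor, Montana. *Meg3*, the noncoding RNA of the same domain, was measurable throughout, at 1.22, 28.4 and 62.5 CPM in KO and 2.95, 12.1 and 411 CPM in WT. N215 was again highest, 6.58 times above Montana. The fold change of *Meg3* was -1.05 (SE 1.03, adjusted p = 0.580, edgeR) and, without N215, 1.49 (SE 0.71, adjusted p = 0.210).

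*Igf2r*, the receptor that takes up and degrades IGF2, had the narrowest range of the members over the 16 tumors, 6.97-fold. However, *Plagl1* spanned less within KO (5.53-fold) and *Grb10* less within the tumors of N42, of N43 and of bone sites in WT without N215. Within N43, *Dlk1*, *Plagl1* and *Igf2* spanned less as well. *Igf2r* had 53.5, 193 and 373 CPM in KO and 94.1, 166 and 247 CPM in WT, with Prince highest and Massa lowest. Its fold change was 0.12 (SE 0.37, adjusted p = 0.888, edgeR). *Grb10*, an adaptor that dampens signaling of the insulin and IGF1 receptors, had 21.7, 127 and 293 CPM in KO and 87.0, 246 and 398 CPM in WT. Only 2 of the 8 KO tumors were above the WT median, and Prince and Massa were the lowest. The fold change of *Grb10* was -0.70 (SE 0.45, adjusted p = 0.363, edgeR). The two-sided exact permutation p was 0.0749 over tumors and 0.426 over mice, where the 4 tumors of N42, the highest 4 of WT, counted as a single mouse in the second.

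*Cdkn1c*, which encodes the cyclin-dependent kinase inhibitor p57, had 1.76, 26.6 and 61.2 CPM in KO and 1.36, 8.84 and 37.8 CPM in WT. Oregon and Montana were highest, and N25 lung was the highest WT tumor. The fold change of 1.05 (SE 0.71, adjusted p = 0.393, edgeR) was 0.27 (SE 0.74, adjusted p = 0.885) without Montana and Oregon. *Plagl1*, a zinc finger factor that activates other imprinted genes, had 13.5, 28.6 and 74.6 CPM in KO and 9.94, 30.0 and 375 CPM in WT. N215 was 5.03 times above the next tumor, Ohio. The fold change was -1.06 (SE 0.68, adjusted p = 0.366, edgeR) and, without N215, 0.34 (SE 0.43, adjusted p = 0.667).

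*Peg3*, a zinc finger protein with many fingers, had 2.23, 13.1 and 217 CPM in KO and 5.22, 34.4 and 164 CPM in WT, and 2 of the 8 KO tumors were above the WT median. The lowest value, in Massa, is a single count. Montana was highest, and N215 was the lowest WT tumor. The fold change was -0.38 (SE 0.85, adjusted p = 0.836, edgeR) and, without Montana and Oregon, -2.34 (SE 0.78, adjusted p = 0.114). *Peg10*, a gene derived from a retrotransposon and required in the placenta, had 2.74, 33.5 and 104 CPM in KO and 9.42, 44.2 and 216 CPM in WT. N215 was 2.07 times above Ohio, and the 4 lowest KO values were those of Prince, Massa, Montana and Oregon. Its fold change was -0.79 (SE 0.72, adjusted p = 0.543, edgeR) and, without N215, -0.16 (SE 0.69, adjusted p = 0.917).

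**Figure D2:**
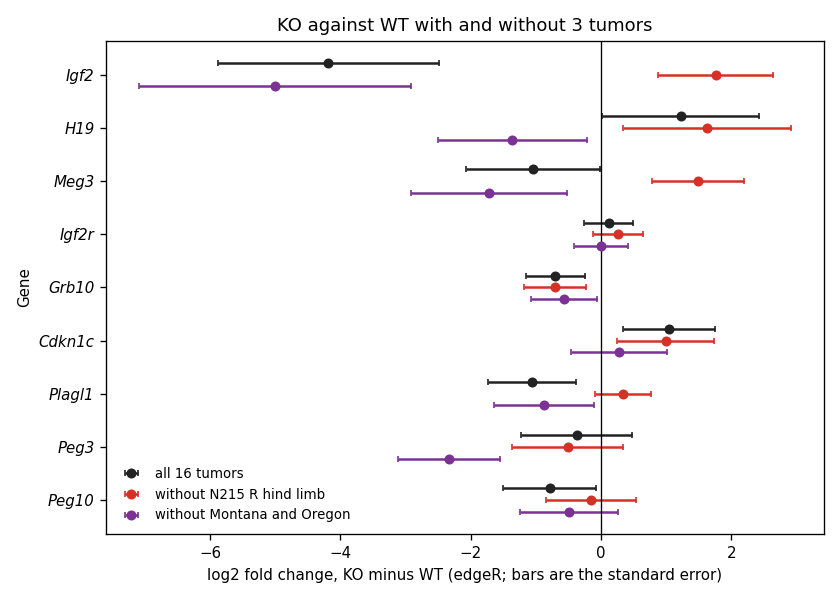
Log2 fold change, KO minus WT (x axis, edgeR; bars are the standard error), of the 9 members tested with all 16 tumors (black), without N215 R hind limb (red) and without Montana and Oregon (purple). *Igf2*, *Meg3* and *Plagl1* are below 0 with all tumors and above 0 without N215, and *H19* is at 1.22 with all tumors and -1.36 without Montana and Oregon.

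Other genes of the imprinted domains and of the pathway were read from lists. Of the 17 tested neighbors of the members, 1 was higher and 2 were lower in KO. *Nap1l4*, a histone chaperone gene near *Cdkn1c*, was higher by 0.75 on the log2 scale (SE 0.19, adjusted p = 0.0369, edgeR). *Sgce* and *Pon2*, both in the domain of *Peg10*, had fold changes of -1.36 (SE 0.34, adjusted p = 0.0350) and -1.03 (SE 0.27, adjusted p = 0.0415). The shares of all genes called higher and lower were 1.86% and 2.15%, and the median of the neighbors was -0.04. With the counts summed per mouse, where 0.0625% of all genes were called, none of the 3 was called (edgeR adjusted p = 0.404, 0.391 and 0.621).

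Of 22 tested genes on a further list of imprinted genes, 1, *Tfpi2*, a protease inhibitor gene of the same imprinted cluster as *Peg10* and *Sgce*, was lower (log2 fold change -2.62, SE 0.68, adjusted p = 0.0404, edgeR), and the median was 0.30. With the counts summed per mouse *Tfpi2* was at -2.17 (SE 0.84, adjusted p = 0.565). None of 18 tested genes that set, read, maintain or remove imprints or DNA methylation was called, and their median was 0.36. The most abundant were *Tet2* (fold change -0.0044, SE 0.28, adjusted p = 0.995), *Ehmt2* (0.13, SE 0.27, adjusted p = 0.815) and *Tet3* (-0.32, SE 0.35, adjusted p = 0.623). On a list of IGF ligand, receptor, binding protein and signaling genes, 13 of the 15 tested had a fold change below 0, as did 44.1% of all genes tested, and the median was -0.61. Of these 1, *Igfbp3*, which encodes a protein that binds IGFs in the circulation, passed the test (-1.76, SE 0.46, adjusted p = 0.0416). It passed in 11 of 30 alternatives, and per mouse it was at -1.51 (SE 0.56, adjusted p = 0.532). Among 7 cyclin-dependent kinase inhibitor genes other than *Cdkn1c*, none was called and the median was -0.48, with *Cdkn1b* at -0.48 (SE 0.21, adjusted p = 0.190), *Cdkn1a* at -0.59 (SE 0.51, adjusted p = 0.515) and *Cdkn2a* at -1.01 (SE 0.81, adjusted p = 0.485). Of 10 tested macrophage genes 8 were lower, where 2.15% of all genes were, and the other 2 had fold changes below 0. The macrophage genes summed to 219 to 762 CPM in KO and 444 to 1959 CPM in WT, with 1731 to 1959 CPM in the 4 tumors of N42. None of the genes on any list here, macrophage genes included, was called with counts summed per mouse (edgeR), with mouse as a random effect (limma-voom) or without N42 (edgeR). None was called in the main comparison among those tested of the skeletal muscle (16 of 16 tested), osteoblast (13 of 14), cartilage (7 of 7), proliferation (13 of 13), myogenic (5 of 9) and adipose (5 of 8) genes. Of the salivary gland, lung and liver genes only 2 of 11, 2 of 10 and 1 of 10 passed the filter on low counts, and none of these was called. The part of these tissue levels in the members' values was not tested beyond the comparisons given here.

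N215 R hind limb stood apart across several domains. It held the highest CPM of the 16 tumors for 5 of 10 members, where it did so for 7.08% of all genes in the table. Some neighbors of the members, named after their values were seen, had their highest value there too. In the Dlk1-Dio3 domain *Rian* had 373 CPM against at most 40.8 elsewhere, *Mirg* 38.3 against 6.15 and *Dio3* 18.3 against 2.58. With *Dlk1* and *Meg3*, these coding and noncoding genes of the domain were high together. *Begain*, a coding gene counted with the domain, was not highest there, with 2.16 CPM against 3.57 CPM in Prince. Beside *Peg3*, *Zim1* had 126 CPM against at most 25.6 and *Zfp264* 25.4 against 1.81, while *Peg3* itself was at 5.22 CPM. *Usp29*, also beside *Peg3*, was at 0 counts there and in 8 other tumors. *Mest*, another imprinted gene of fetal tissue, had 186 CPM against at most 54.1. In all, 6 of 26 neighbors (23.1%) and 3 of 28 genes on the further list (10.7%) were highest there. Prince held the highest value for more neighbors, 7 (26.9%, and 12.601% of all genes in the table), and Oregon for more of the further list, 5 (17.9%, and 8.49% of all genes).

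*Cdkn1c* (7.03 CPM), *Grb10* (186 CPM), *Igf2r* (247 CPM) and *H19* (228 CPM) of N215 lay within the range of the other 15 tumors. *Igf2os*, antisense to *Igf2*, had 398 counts there and at most 4 in any other tumor, beside 26423 counts of *Igf2*. Of the 20 genes on the list of IGF ligand, receptor, binding protein and signaling genes, 5 were highest in N215. The share of all genes in the table was 7.08%. Among the 5 were the fetal RNA-binding proteins *Igf2bp3* (21.1 CPM) and *Lin28b* (1.13 CPM), against at most 15.9 and 0.280 CPM elsewhere. The others were *Igf2bp2* (69.3 CPM against at most 47.2 elsewhere), *Igfbp4* (761 against 398) and *Igf1r* (245 against 237). The value of *Igf2bp3* was 1.33 times that of the next tumor, and that of *Lin28b* rests on 10 counts. *Igf2bp1*, on the same list, was not highest there, with 1.59 CPM against 8.92 CPM in Massa. The 14 osteoblast genes of N215 summed to 5633 CPM with 3 of them at 0. Its 16 muscle genes summed to 7112 CPM, between the values of N43 spine and N43 pelvis. Only this tumor of the mouse was sequenced, so that mouse, site and tumor cannot be told apart. Its identity as a WT osteosarcoma was taken from the labels and was not tested, which bears on each WT value of *Igf2*, *Dlk1*, *Meg3*, *Plagl1* and *Peg10* that includes it.

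**Figure D3:**
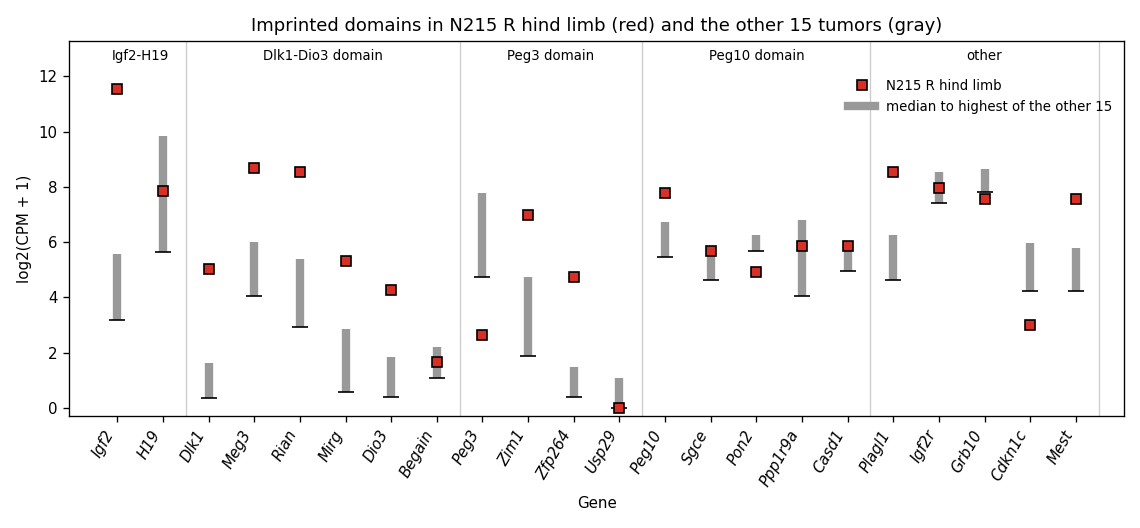
Log2(CPM + 1) (y axis) of the members and genes of their domains in N215 R hind limb (red squares) and in the other 15 tumors (gray bars from the median, black line, to the highest value). The red square is above the bar for *Igf2*, *Dlk1*, *Meg3*, *Rian*, *Mirg*, *Dio3*, *Zim1* and *Zfp264*. It is also above the bar for *Peg10*, *Casd1*, *Plagl1* and *Mest*. It is within the bar for *Begain*, *Sgce*, *Ppp1r9a*, *H19* and *Igf2r*, and below it for *Peg3*, *Pon2*, *Grb10* and *Cdkn1c*. For *Usp29* the square and the median are both at 0.

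Among WT tumors, 4 of limb and shoulder were set against 3 of spine and pelvis. None of the 10 members was called by edgeR at this size, as was none of 17131 genes (0.0%), and no member had an unadjusted p under 0.05, where 3.74% of all genes did. DESeq2 called 31 genes, none of them a member, but it gave no adjusted p for *Igf2*, *Dlk1*, *Meg3* and *Plagl1*. The fold changes, limb and shoulder minus spine and pelvis, ranged from -1.31 for *Peg3* (SE 1.05, adjusted p = 0.974) to 6.47 for *Igf2* (SE 2.97, adjusted p = 0.974). *Igf2* had 2997, 0.966, 8.38 and 1.95 CPM in N215 R hind limb and in the R femur, L limb and L shoulder of N42, and 4.29, 13.5 and 6.87 CPM in N43 spine, N42 R pelvis and N43 pelvis. Apart from N215, the R femur and L shoulder lay below the 3 spine and pelvis values and the L limb lay among them. Only N42 has tumors of both kinds of site. With the mouse as a block, the fold change therefore sets its R femur, L limb and L shoulder against its R pelvis alone. That fold change was -1.84 for *Igf2* and -2.07 for *H19*, where *H19* had -0.91 (SE 1.12) without the block. The smallest two-sided exact permutation p that 4 against 3 tumors allow is 0.0571, and the members had 0.229 to 0.943.

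The 4 tumors of N42, which arose in the same mouse, differed widely from each other. *Peg3* had 6.02 CPM in the R femur, 43.2 in the L shoulder, 99.1 in the R pelvis and 101 in the L limb. *H19* had 4.94 CPM in the R femur, 16.4 in the L shoulder, 48.9 in the L limb and 97.9 in the R pelvis. The highest exceeded the lowest 19.8 times for *H19*, 16.8 times for *Peg3*, 13.996 times for *Igf2* and 13.1 times for *Cdkn1c*, but 2.04 times for *Igf2r* and 1.49 times for *Grb10*. The R femur was the lowest of the 4 for 8 of 10 members, where it was the lowest for 28.5% of all genes tested, and it was the highest for *Igf2r* and *Grb10*. Its muscle genes summed to 74.2 CPM, against 916 to 2516 CPM in the other 3. In N43 the pelvis was above the spine 4.50 times for *H19* and 6.40 times for *Peg3*, with muscle sums of 10195 and 3760 CPM.

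**Figure D4:**
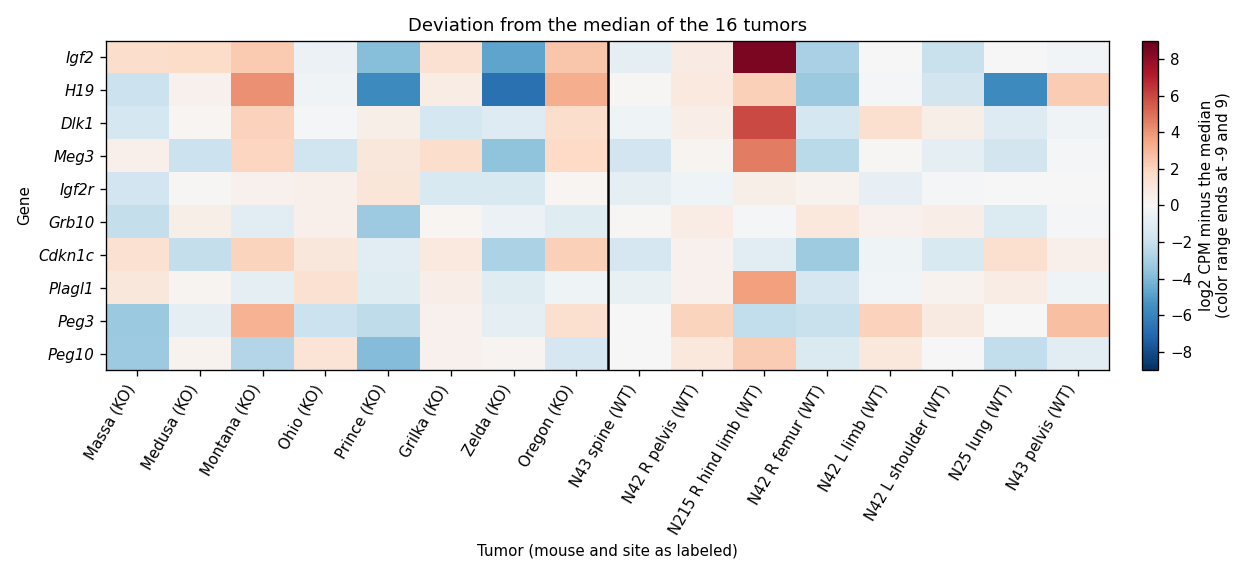
Log2 CPM of each member (rows) minus its median over the 16 tumors (columns, KO left and WT right of the line), from blue (lower) to red (higher). The column of N215 is red for *Igf2*, *Dlk1*, *Meg3* and *Plagl1*, N42 R femur is blue for all members but *Igf2r* and *Grb10*, and *H19* is darkest blue in Zelda, Prince and N25 lung.

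The genes most like each member over the 16 tumors were found by Spearman's rho of log2 CPM, as a description without a test, since tumors share mice and many genes follow the tissue content. For *H19* they were *Cmya5* (rho 0.96) and *Cavin4* (0.95), both muscle genes, and for *Meg3* the muscle gene *Jph2* (0.93) and *Cltb* (0.89). For *Peg3* they were the tendon factor *Scx* (0.86) and the muscle gene *Myo18b* (0.86), and for *Igf2* *Rps6ka2* (0.87) and *Fabp3* (0.87). *Peg10* was most like *Foxd1* (0.93) and *Skp2* (0.93), a component of the ubiquitin ligase that removes p27. *Grb10* was most like *Mapk6* (0.94) and *Cdr2l* (0.94), *Dlk1* like *Osr2* (0.90) and *Nosip* (0.89), and *Igf2r* like *Ighmbp2* (0.87) and *Brsk1* (0.86). Outside N215 *Dlk1* had only 0 to 24 counts per tumor, so its ranks rest on few counts and depend on library depth. The closest genes for *Cdkn1c* were *Ccdc85b* (0.85) and *Oxsr1* (0.84), and for *Plagl1*, with the weakest likeness, *Plk2* (0.81) and *Wnk4* (0.80).

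Against the summed skeletal muscle genes, rho over the 16 tumors was 0.92 for *H19*, 0.69 for *Peg3*, 0.66 for *Dlk1* and 0.59 for *Igf2*. Over the 14 tumors without Montana and Oregon it was 0.89 for *H19*, 0.60 for *Peg3*, 0.51 for *Dlk1* and 0.41 for *Igf2*. Without N215 it was 0.84 for *Peg3*. The values for *Dlk1* rest on few counts, at most 24 in any tumor but N215. *Peg10* instead followed the 13 proliferation genes, with a rho of 0.83, or 0.78 without Montana and Oregon. *Grb10* followed the 14 osteoblast genes, with a rho of 0.87, or 0.85 without Montana and Oregon. The osteoblast sums had medians of 8679 CPM in KO and 62724 CPM in WT. Their part in the *Grb10* values was not tested. With a skeletal muscle score as a covariate the fold change of *H19* was 1.23 (SE 0.68, adjusted p = 0.275, edgeR) and that of *Peg3* -0.81 (SE 0.58, adjusted p = 0.414). That of *Igf2* moved from -4.19 to -2.78 (SE 2.18, adjusted p = 0.465) and that of *Meg3* from -1.05 to -0.27 (SE 1.18, adjusted p = 0.920).

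**Figure D5:**
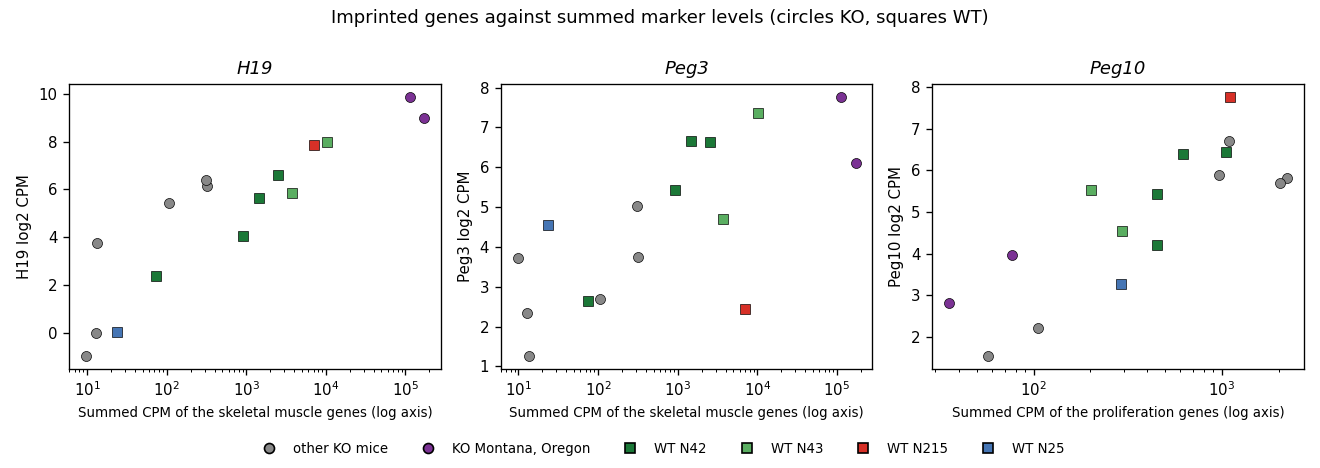
Log2 CPM of *H19*, *Peg3* and *Peg10* (y axes) against the summed CPM of 16 skeletal muscle genes or 13 proliferation genes (x axes, log scale) in the 16 tumors, with circles for KO and squares for WT. *H19* is higher where the muscle sum is higher in both groups, and N215 (red) is far below the other tumors of similar muscle sum for *Peg3*.

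The 7 pairs of members chosen by name were correlated over the 12 mice, with counts summed per mouse and two-sided permutation tests adjusted over the 7 pairs. *Igf2* and *H19* had a Pearson r of 0.70 (p = 0.00749, adjusted p = 0.0277) and a rho of 0.73 (p = 0.00981, adjusted p = 0.0687), and r was 0.70 without N215 and Zelda, the mice farthest from the median of *Igf2*. Over the 8 KO mice r was 0.92 (exact permutation p = 0.00258, adjusted p = 0.0181) and 0.60 without Zelda and Prince. The 4 WT mice are too few for a value of their own. *Plagl1* and *Igf2* had an r of 0.76 (permutation p = 0.00814, adjusted p = 0.0277) and a rho of 0.45 (adjusted p = 0.324). Without N215 and Ohio r was 0.56, and in KO it was 0.44 (exact permutation p = 0.278, adjusted p = 0.459). *Dlk1* and *Meg3* had an r of 0.70 (permutation p = 0.0119, adjusted p = 0.0277) and a rho of 0.51 (adjusted p = 0.324), and r was 0.24 without N215 and Montana, so that the relation rests on those mice. The other 4 pairs (*Igf2* with *Cdkn1c*, and *Plagl1* with *H19*, *Cdkn1c* and *Dlk1*) had an r of 0.065 to 0.47 and adjusted p-values of 0.210 to 0.848, with a rho of -0.15 to 0.38.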

How the data were processed

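The authors extracted RNA from 16 osteosarcomas, removed ribosomal RNA, sequenced it from a single end, aligned the reads with Novoalign 2.08.01 to mm10, kept the best of several permitted alignments of a read, and counted reads per gene with USeq before running DESeq2 1.26.0. The deposited file holds raw counts per gene, not normalized, and no gene in it totals fewer than 6. The strand of counting is not given in the sources used here. Groups came from the labels, and an animal code that occurs in several labels was read as 1 mouse, which gives 12 mice. Nothing in the labels gives a batch or date.

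Counts were tested with edgeR 4.0.16 (R 4.3.3): TMM scaling, filterByExpr (minimum count 10, minimum total 15), glmQLFit and glmQLFTest, with Benjamini-Hochberg adjustment over all 15413 genes tested and a threshold of 0.05; 9641 genes were left out. The fit of WT sites used the 7 WT tumors other than lung. Log2 CPM used a prior count of 2. Exact permutations took all 12870 choices of 8 of 16 tumors, 495 of mice and 35 of WT tumors; correlations over 12 mice took 100000 resamples, and those over 8 mice were exact. Alternatives used DESeq2 1.42.0 and limma 3.58.1 with statmod 1.5.0. Scripts were tested on simulated data. Annotation is GENCODE M21, and promoters and microRNAs are from RefSeq GRCm38.p6. Correlations, similarity and plots were made in Python 3.11.15 (matplotlib 3.10.9, pandas 2.3.3, scipy 1.17.1, numpy 2.4.6).

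The members and gene lists were chosen with earlier results of these data known. The genes named were the members; in each list the genes past the threshold (at most 5) or else the 3 most abundant; for each member the 2 most similar tested genes, leaving out models named Gm or Rik; and the genes with conditional alleles. Of the tissue marker lists only sums and counts are given. *Trp53* (log2 fold change 0.55, SE 0.24, adjusted p = 0.183, edgeR) and *Rb1* (0.22, SE 0.33, adjusted p = 0.734) carry conditional alleles in both groups. Other genes of N215 were named after their values were seen.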

Additional observations from a re-analysis of the deposited data

Results flagged for a closer look

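Among the 30 sets of values checked (10 members in KO, in WT and in WT limb and shoulder), 4 had a tumor whose gap to its nearest neighbor was too large for the range of its group by Dixon's 95% criterion, and chance alone gives about 1 in 20. All 4 are WT values of N215 R hind limb, so they are not independent of each other. *Igf2* had a log2 CPM of 11.55 there, with the next WT tumor at 3.77. *Dlk1* had 4.98, with the next at 0.47. *Meg3* had 8.68, with the next at 4.32. *Plagl1* had 8.55, with the next at 5.55. No other tumor and none of the remaining members, *H19*, *Igf2r*, *Peg3*, *Peg10*, *Cdkn1c* and *Grb10*, met this criterion in these groups.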

How the results depend on the processing

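No paired analysis was possible because no mouse has tumors in both groups and the replicate numbers only follow the order of the samples. Over 30 alternatives for KO against WT, 1 of 270 values of the 9 tested members passed the threshold, *Igf2* in DESeq2 without outlier replacement, an alternative chosen after seeing the data, as was the fit of Medusa and Ohio without N215. *Dlk1*, tested in 5 of the alternatives, ranged from -3.58 to 0.73 (adjusted p = 0.140 to 0.879, edgeR or DESeq2). Members called numbered 0 in every other alternative and 0 without any single tumor. Of the 270 values, 19 changed sign: DESeq2 (*Igf2* 1.61, *Plagl1* 0.33), limma-voom with a random effect of mouse (*H19* -0.65, *Igf2r* -0.036, *Cdkn1c* -0.015), without Montana and Oregon (*H19* -1.36), Medusa and Ohio against WT (*H19* -0.69, *Peg10* 0.26, *Grb10* 0.14), the same without N215 (*H19* -0.34, *Igf2* 1.28, *Peg10* 0.81, *Plagl1* 0.93, *Grb10* 0.092), and leaving out single tumors (*Igf2* 1.76, *Meg3* 1.49 and *Plagl1* 0.34 without N215, *Igf2r* -0.13 without Prince, *Peg3* 0.051 without N43 pelvis). The ranges without single tumors were -4.49 to 1.76 for *Igf2*, -1.32 to 1.49 for *Meg3*, -1.36 to 0.34 for *Plagl1*, -1.54 to 0.051 for *Peg3* and -0.13 to 0.26 for *Igf2r*. *Rb1* changed to -0.25 and -0.32 in the 2 fits of Medusa and Ohio and -0.14 without Zelda (range without single tumors to 0.33), *Ehmt2* to -0.016 without Grilka (range to 0.27), and *Tet3* to 0.17 in Medusa and Ohio without N215.

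*Tet2*, at -0.0044, was above 0 in both DESeq2 fits (0.026 each), with RLE (0.019) or upper-quartile factors (0.015), per mouse (0.17), by limma-voom (0.13), without N42 (0.18), without Massa and Grilka (0.17), without Montana and Oregon (0.015), with the muscle score (0.014) and in the 2 fits of Medusa and Ohio (0.48, 0.46), and ranged from -0.14 to 0.13 without single tumors.

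Over all genes 618 were called, with 252 to 1348 when single tumors were left out, 2517 by DESeq2, 2566 without its outlier replacement, 10 per mouse, 17 by limma-voom, 8 without N42, 372 without Montana and Oregon, 1039 with the muscle score and 2437 in Medusa and Ohio without N215. Genes called in the lists numbered 13, with 5 to 18 when single tumors were left out, 32 by DESeq2, 47 without its outlier replacement, 22 without the filter on low counts, 0 per mouse, by limma-voom and without N42, 5 without Montana and Oregon, and 8 and 24 in the 2 fits of Medusa and Ohio.

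In the comparison of WT sites edgeR called 0 genes, DESeq2 31. With the mouse as a block, *Igf2* was at -1.84, *Dlk1* at -0.061, *Meg3* at -1.02, *Peg10* at -0.77, *Plagl1* at -0.73 and *Grb10* at -0.048. These blocked values rest on N42 alone, with its R pelvis as the single tumor of spine and pelvis. Without N215 *Igf2* was at -1.12, *Meg3* at -0.45, *Peg10* at -0.044 and *Plagl1* at -0.17, with highest values without another single tumor of 7.02, 3.43, 1.37 and 2.46. The correlation of *Dlk1* and *Meg3* lost its call with a prior count of 0.5 (r = 0.60, adjusted permutation p = 0.0911) and without Montana and Oregon (r = 0.66, adjusted permutation p = 0.146). The Pearson correlations of the other 6 pairs kept their side of the threshold in these 2 alternatives, while by Spearman's rho no pair was past it (adjusted permutation p = 0.0687 for *Igf2* and *H19* and 0.324 for *Plagl1* and *Igf2*). The cause of these changes was not tested. The shallow libraries Massa and Grilka limit what can be seen of *Dlk1*, *Peg3* and *Peg10*.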
